A study of Homo sapiens with 14 samples.

Results

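The 8 genes that initiate and terminate the transcription of ribosomal DNA (rDNA) were followed in MDA-MB-231, a mesenchymal, triple-negative cell line established from a human breast cancer. They were chosen by symbol: UBTF, RRN3, TAF1A, TAF1B, TAF1C, TAF1D, TBP and TTF1, which are 8 of the 60876 genes annotated, and all 8 were among the 15426 genes with enough reads to be tested. Poly(A) RNA was sequenced in 14 libraries that form 7 groups of 2 replicates. The control cells received neither compound according to the labels, and the other groups received 5 µM RBI2 or 5 µM CX-5461 for a time labelled 10, 30 or 120 min. RBI2 is a small molecule under study as an inhibitor of ribosome biogenesis, and CX-5461 is an inhibitor of RNA polymerase I (Pol I) that served as the positive control. The design asked whether the 2 compounds change mRNA levels, and the 8 genes show this for the proteins that bring Pol I to the rDNA and release it again. The paper also speaks of DMSO-treated controls, and the time codes in the names of the deposited data are 02, 10 and 30 for the labels 10, 30 and 120 min, so times are given here as labels only. The sources used here do not say whether replicates were separate cultures, so p-values measure the spread between these libraries, which may be technical.

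Transcription of rDNA starts when the selectivity factor SL1 binds the core promoter. SL1 is made of TBP, the TATA-binding protein that also serves RNA polymerases II and III, and the Pol I-specific subunits TAF1A, TAF1B, TAF1C and TAF1D. UBF, encoded by UBTF, is an HMG-box protein that coats active rDNA, and TIF-IA, encoded by RRN3, bridges the polymerase to SL1 and is regulated by growth signalling. TTF1 binds terminator elements downstream of the rRNA coding region and stops the polymerase there. It is unrelated to the lung and thyroid factor NKX2-1, which is also called TTF-1. TAF1D also hosts small nucleolar RNAs (snoRNAs) in its introns.

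Library totals lay between 14112299 and 24849354 estimated reads. Mitochondrial transcripts took 20.4% of the estimated reads in control replicate 2 and between 8.05% and 11.2% in the other libraries. VIM, CD44, AXL, EGFR, ZEB1, SPARC and KRT18 were all present, and PGR and INS were at 0. ESR1 reached at most 0.205 TPM and CDH1 at most 0.285 TPM and EPCAM lay between 11.4 and 22.4 TPM. Of the other genes looked for as low in this line, ERBB2 lay between 14.8 and 22.9 TPM and GATA3 between 1.82 and 3.48 TPM, so transcripts of both were present. The leukocyte, endothelial and hepatocyte markers PTPRC, CD3E, PECAM1 and ALB stayed at or under 0.630 TPM.

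The members lie on 7 chromosomes in GRCh38, and only RRN3 and TAF1C share one. TAF1D lies on the minus strand at chr11:93729948-93784391, UBTF on the minus strand at chr17:44205033-44221626 and RRN3 on the minus strand at chr16:15060033-15094311. TAF1A lies on the minus strand at chr1:222557902-222589933, TAF1B on the plus strand at chr2:9843443-9934416 and TAF1C on the minus strand at chr16:84177847-84187070. TBP lies on the plus strand at chr6:170554302-170572870 and TTF1 on the minus strand at chr9:132375548-132406851.

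TAF1D carried the largest difference among the members, and snoRNAs inside its retained-intron transcript TAF1D-215 are therefore shown first. Of the snoRNAs whose sequences this transcript holds, 4 are printed, read here from the GENCODE 44 transcripts. Capitals mark box C (TGATGA) and box D (CTGA) in SNORD5 and the ACA box near the 3′ end of the others, and in SNORA40 no ACA stood at the expected place.
SNORA32: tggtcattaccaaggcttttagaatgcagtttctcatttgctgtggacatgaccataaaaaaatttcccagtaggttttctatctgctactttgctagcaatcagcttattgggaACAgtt
SNORA8: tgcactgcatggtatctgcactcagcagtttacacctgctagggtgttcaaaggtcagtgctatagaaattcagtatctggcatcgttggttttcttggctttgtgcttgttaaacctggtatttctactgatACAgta
SNORD5: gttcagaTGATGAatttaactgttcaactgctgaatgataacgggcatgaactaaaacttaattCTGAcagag
SNORA40: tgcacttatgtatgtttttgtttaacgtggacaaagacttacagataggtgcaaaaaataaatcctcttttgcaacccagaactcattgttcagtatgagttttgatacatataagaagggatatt
SNORD5 lies at chr11:93733228-93733300 and SNORA8 at chr11:93732361-93732499. SNORA32 lies at chr11:93730979-93731099 and SNORA40 at chr11:93735111-93735236, all on the minus strand of GRCh38. They stand downstream of the end of the canonical coding transcript TAF1D-203, in introns of transcripts that reach further downstream, such as TAF1D-202. Other introns of TAF1D-202 hold SNORA25, SNORD6, SNORA1 and MIR1304. The annotated entries of these 8 small RNAs received between 0 and 6 reads each over all 14 libraries, so their own levels cannot be read from these poly(A) libraries.

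Promoters of the 3 members that differed from the control are shown next, from RefSeq on GRCh38.p14, each 250 bases before to 50 bases after the gene's start in RefSeq. For TAF1D that is the start of the coding TAF1D-203, at position 93741495, while the gene's outer limit given above is the start of 1 transcript, TAF1D-208. Capitals mark the ETS core CCGGAA and the GC box GGGCGG on either strand.
TAF1D promoter, chr11:93741446-93741745, minus strand: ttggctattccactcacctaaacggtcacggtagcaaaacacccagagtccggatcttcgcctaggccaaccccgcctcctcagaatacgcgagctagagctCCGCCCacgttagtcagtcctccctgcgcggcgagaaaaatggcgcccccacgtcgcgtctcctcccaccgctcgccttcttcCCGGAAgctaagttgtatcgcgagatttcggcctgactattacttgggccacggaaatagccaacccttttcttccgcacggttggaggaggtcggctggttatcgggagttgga
RRN3 promoter, chr16:15094286-15094585, minus strand: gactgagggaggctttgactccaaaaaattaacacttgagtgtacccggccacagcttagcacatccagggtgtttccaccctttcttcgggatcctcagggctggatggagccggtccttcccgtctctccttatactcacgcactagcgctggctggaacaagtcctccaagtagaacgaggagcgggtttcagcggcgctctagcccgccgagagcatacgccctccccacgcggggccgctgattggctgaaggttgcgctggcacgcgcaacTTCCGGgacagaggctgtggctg
TAF1A promoter, chr1:222589884-222590183, minus strand: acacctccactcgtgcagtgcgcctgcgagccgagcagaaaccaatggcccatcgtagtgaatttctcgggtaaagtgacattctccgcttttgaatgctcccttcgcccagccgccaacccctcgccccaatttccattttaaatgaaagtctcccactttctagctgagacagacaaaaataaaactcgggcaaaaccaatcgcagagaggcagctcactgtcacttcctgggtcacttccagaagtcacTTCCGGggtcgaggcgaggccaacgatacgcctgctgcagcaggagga
Each of the 3 promoters holds 1 ETS core. All members had a promoter in the table, and 7 of 8 hold the letters CCGGAA, all but UBTF. They stand in 17.2% of all 35114 promoters of this length and in 26.7% of the 15834 promoters of tested genes. GGGCGG stood in UBTF, TAF1D and TBP, against 44.95% of all promoters and 65.7% of those of tested genes, and may overlap the ETS core, as it does in TBP. Neither the E-box CACGTG nor TATAAA was found in a member's promoter, and they stood in 7.26% and 11.5% of all promoters and in 9.13% and 6.32% of those of tested genes. A match describes the letters only.

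Per transcript length, TAF1D stood far above the other members in every group. Its level in the control was 333 ± 12.4 TPM (SD, n = 2), against 44.3 ± 8.02 TPM for TAF1B, 42.8 ± 9.48 TPM for UBTF and 7.98 ± 1.62 TPM for TAF1C. TAF1B followed, then UBTF, and TAF1C was last in every group by mean TPM. In the control, and with RBI2 at the 30 min label, the libraries of TAF1B and UBTF overlapped, and in the other 5 groups TAF1B lay above UBTF in both libraries. TTF1 at 22.1 ± 4.62, TAF1A at 21.8 ± 1.00, TBP at 19.9 ± 5.48 and RRN3 at 17.9 ± 5.28 TPM followed in the control, and no neighbours among these 4 differed beyond the spread between replicates. Their order changed between groups. RRN3 was first among these 4 with CX-5461 at the 120 min label, at 27.4 ± 3.39 TPM, without overlap with TAF1A, the next. With RBI2 at that label RRN3 had the lowest mean of the 4, at 17.4 ± 0.92 TPM. Its libraries overlapped there with those of TAF1A, at a mean of 18.2 TPM. TAF1D made up 51.2% and 51.3% of the summed TPM of the members in the libraries treated with CX-5461 at the 10 min label, and between 61.6% and 69.7% in each of the other 12 libraries.

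**Figure D1:**
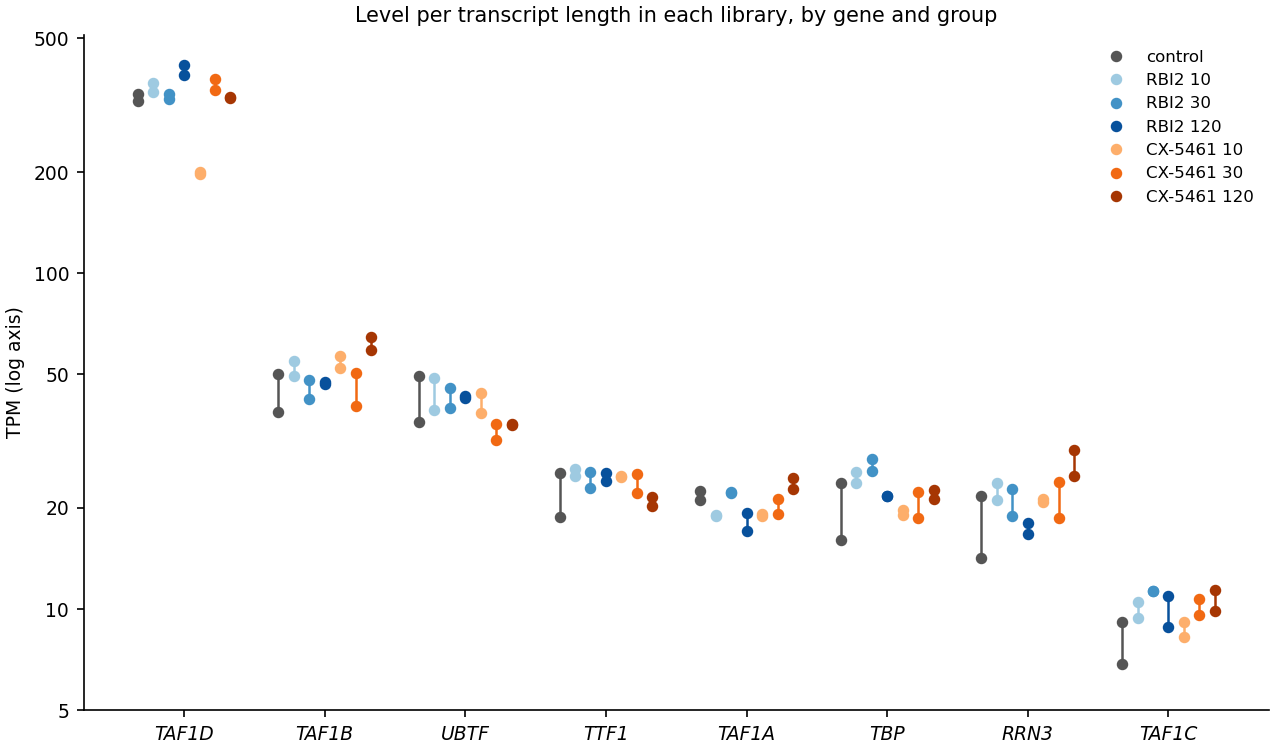
Level of each member in TPM on a log axis, 1 dot per library, with a line joining the 2 replicates of a group and colours for the 7 groups (numbers are the time labels in min). TAF1D has a mean of 333 TPM or more in all groups but CX-5461 at the 10 min label, where it is 199 TPM, and TAF1C is lowest in every group.

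The levels compared between groups below are CPM, read counts scaled to library size with TMM factors and not divided by length. Changes were called by edgeR's quasi-likelihood test with all 14 libraries in 1 model, at a p under 0.05 after Benjamini-Hochberg adjustment over all 15426 genes. In bulk RNA, less of a transcript per cell and fewer cells that hold it cannot be told apart.

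**Figure D2:**
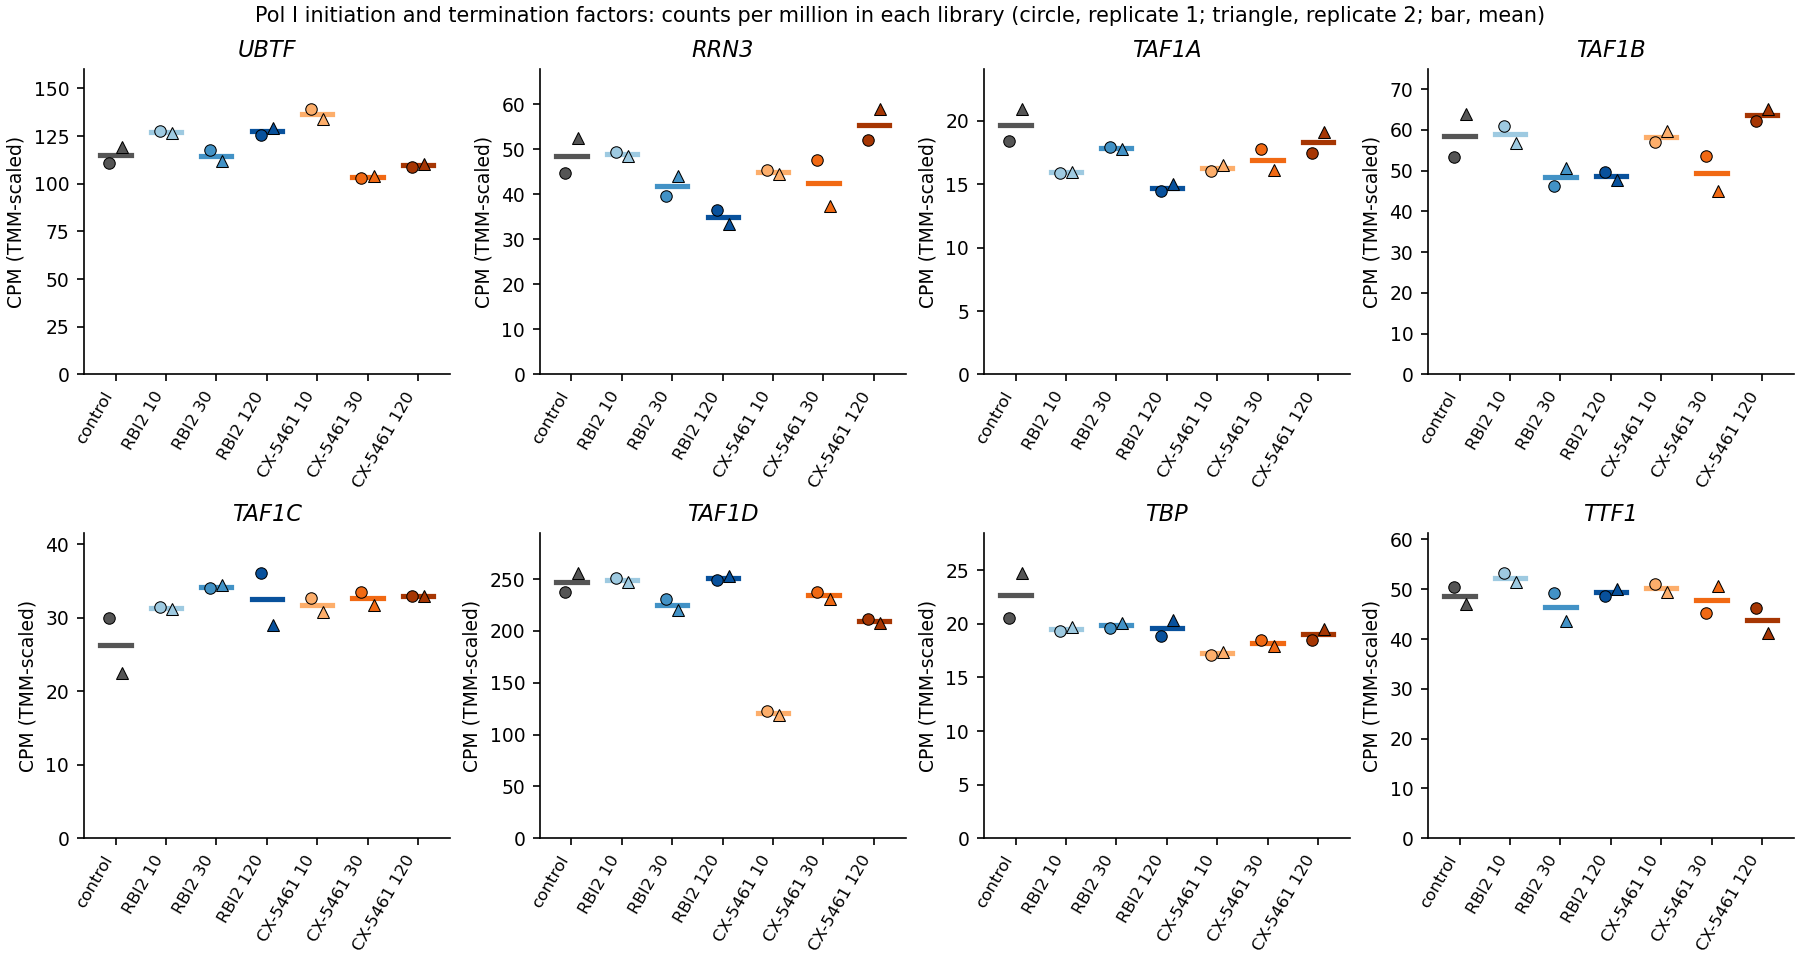
CPM of each member in each library, with axes from 0, a circle for replicate 1, a triangle for replicate 2 and a bar for the group mean (numbers are the time labels in min). TAF1D is lowest with CX-5461 at the 10 min label, at 122.8 and 118.7 CPM, and RRN3 and TAF1A are lowest with RBI2 at the 120 min label.

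Of SL1, the subunit TAF1D fell in cells treated with CX-5461 at the 10 min label. It stood at 237.8 and 256.1 CPM in the control libraries and at 122.8 and 118.7 CPM in the treated ones, and the groups lay far apart. The log2 fold change was -1.03 (SE 0.0641, 95% interval -1.17 to -0.89), a fold of 0.489, with an adjusted p of 9.91e-06 by edgeR's quasi-likelihood test. TAF1D was the 1 member of 8 that changed in this comparison, in which 4.77% of all genes did and 2.98% fell. The libraries labelled 30 min held 237.9 and 231.0 CPM, within the range of the other groups, and those labelled 120 min held 211.3 and 207.6 CPM. At the 120 min label the log2 fold change against the control was -0.24 with an adjusted p of 0.28, and both treated libraries lay below both control libraries. With RBI2 the gene stood at 251.1 and 247.6, then 230.6 and 220.3, then 249.6 and 252.7 CPM at the 3 labels, and its log2 fold changes against the control were 0.01, -0.13 and 0.02. The call at the 10 min label of CX-5461 was kept under 20 of 21 alternatives. It was lost with only the 4 libraries of the comparison in the model, at a log2 fold change of -1.02 and an adjusted p of 0.127 (range over the alternatives 6.27e-58 to 0.127).

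Most reads of TAF1D were not assigned to its coding transcripts. Of the 22 annotated transcripts, 7 of the class of nonsense-mediated decay held 47.2% ± 0.77 of the gene's reads in the control, 9 with a retained intron held 35.8% ± 3.34 and 3 coding ones held 15.6% ± 3.05 (SD, n = 2 each). The main transcripts were TAF1D-205 of the decay class with 27.8% of the gene's reads over all libraries, the coding TAF1D-203 with 16.5% and the retained-intron TAF1D-215 with 16.2%. With CX-5461 at the 10 min label the mean CPM of all 3 classes was lower than in the control, at 0.504 times its level for decay transcripts, 0.600 times for coding transcripts and 0.427 times for retained-intron transcripts, described here without a test of the class sums.

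Transcript by transcript, TAF1D-215 and TAF1D-213 fell with CX-5461 at the 10 min label. They were 2 of the 46 transcripts of the members with enough reads, and 0.322% of all 55593 transcripts tested passed. TAF1D-215 stood at 41.2 and 40.7 CPM in the control and at 12.8 and 10.2 CPM after treatment, which left no overlap, with a log2 fold change of -1.83 (SE 0.199) and an adjusted p of 0.0116 (edgeR). TAF1D-213, a retained-intron transcript with SNORA32 and SNORA1 in its exons, stood at 3.27 and 4.30 CPM in the control and at 0.112 and 0.227 CPM after treatment, or 1.64 and 4.08 reads, with a log2 fold change of -4.42 (SE 0.493) and an adjusted p of 0.0121. The coding TAF1D-203 stood at 32.3 and 42.8 CPM and then at 19.3 and 28.3 CPM, without overlap, with a log2 fold change of -0.66 and an adjusted p of 0.505. For TAF1D-205 the log2 fold change was -0.80 with an adjusted p of 0.423, and for TAF1D-210, whose first exon holds SNORA40, it was -0.16 with an adjusted p of 0.889. In the transcript test of any difference among the 7 groups none of the 46 passed in edgeR, where 0.187% of all transcripts did. DESeq2 was not run on transcripts. An unadjusted p under 0.05 was found for 5 of the 46. That count has no share of all transcripts beside it, so nothing is read from it. Salmon's own uncertainty in dividing reads between transcripts was not part of the test.

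**Figure D3:**
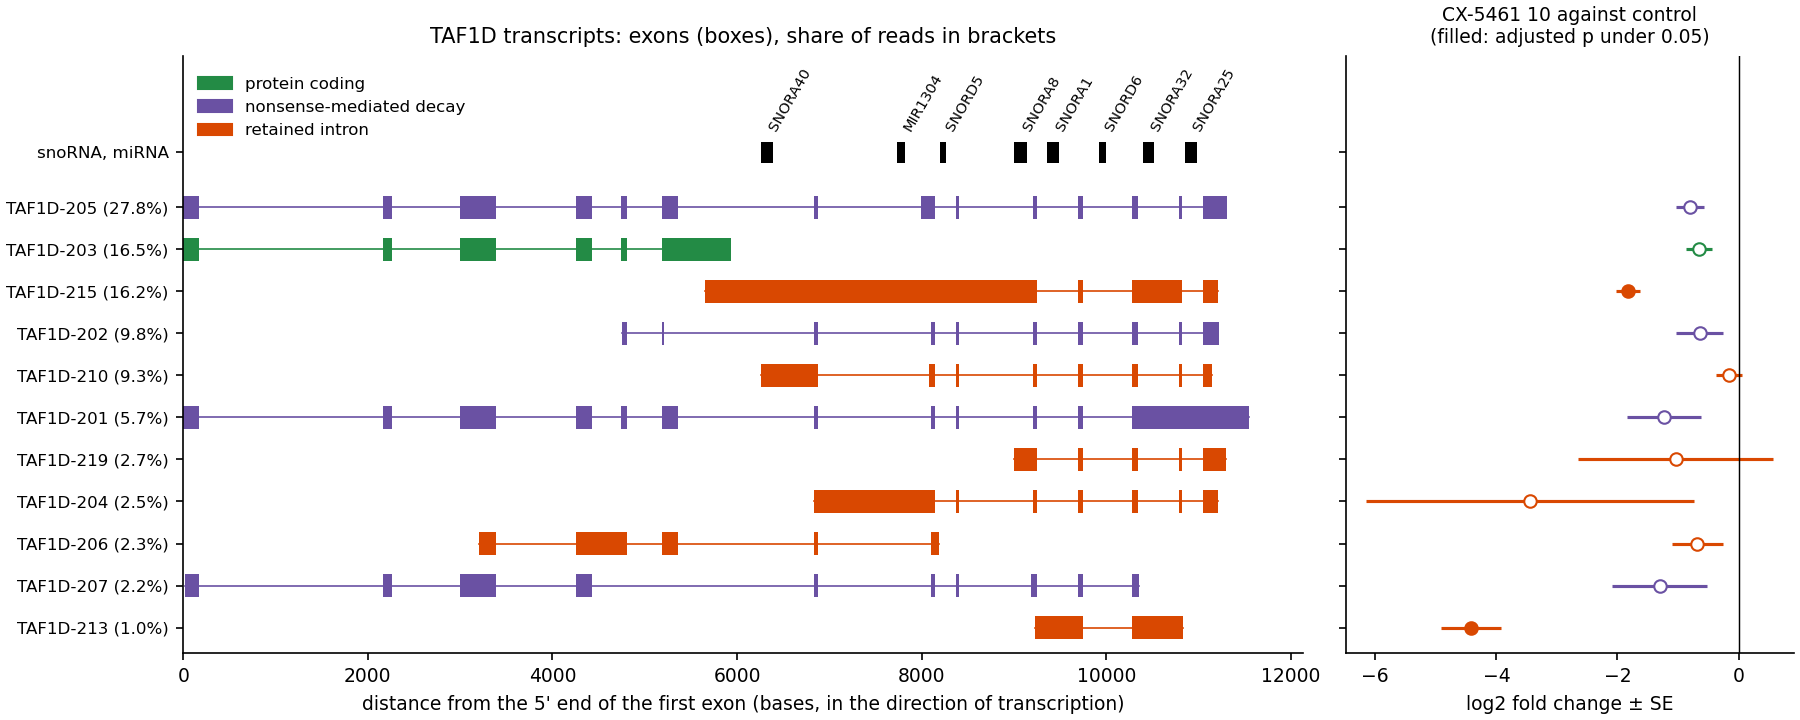
Left, exons (boxes) of the TAF1D transcripts with at least 2% of the gene's reads and of TAF1D-213, by distance in bases from the 5′ end of the first exon, coloured by annotated class, with snoRNAs and MIR1304 in black above. Right, log2 fold change (± SE) of each with CX-5461 at the 10 min label against the control, where the filled points, TAF1D-215 at -1.83 and TAF1D-213 at -4.42, passed the test.

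TAF1D is overlapped on the other strand by CEP295, C11orf54 and MED17. The kit marks strand, but the sources used here do not say whether strand entered the counting. In the same comparison the log2 fold changes of these neighbours were -0.78 for CEP295 (adjusted p of 0.0379), -0.03 for C11orf54 (0.923) and -0.24 for MED17 (0.26) in edgeR's test. The part of shared reads in the fall of TAF1D was not tested. When the retained-intron transcripts were left out of all gene sums, an alternative chosen after seeing the data, the log2 fold change of TAF1D was -0.92 with an adjusted p of 0.000749.

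The other SL1 subunits differed less. TAF1A, at 18.4 and 20.9 CPM in the control, was lower at 14.5 and 15.0 CPM with RBI2 at the 120 min label, and the groups did not overlap. The log2 fold change was -0.41 (SE 0.0992, 95% interval -0.63 to -0.20) with an adjusted p of 0.0226 by edgeR's quasi-likelihood test. At the labels 10 and 30 min it stood at 15.9 and 16.0, then 17.9 and 17.8 CPM with RBI2. With CX-5461 it stood at 16.1 and 16.5, 17.8 and 16.1, and 17.5 and 19.1 CPM in order of the labels. In CPM all 6 treated groups thus had a lower mean than the control, and 1 of them passed the test. In TPM the means with RBI2 at 30 min, 22.2 TPM, and with CX-5461 at 120 min, 23.7 TPM, lay above that of the control, 21.8 TPM. TPM carries no TMM scaling and includes mitochondrial transcripts, which took 20.4% of the reads of control replicate 2. In TPM rescaled without them the control, at 27.97 TPM, lay above RBI2 at 30 min, at 25.8 TPM, and next to CX-5461 at 120 min, at 28.0 TPM. It was that of RBI2 at 120 min, where TAF1A and RRN3 were the 2 of 8 members called, both lower, in a comparison that called 18% of all genes, 9.07% of all genes as lower. The call was lost without control replicate 2 (log2 fold change -0.33, adjusted p 0.0696) and without either RBI2 replicate (-0.36 and 0.133 without replicate 1, -0.45 and 0.0906 without replicate 2). It was also lost once transcript length entered as an offset (-0.49, adjusted p 0.0974), with no filter on low counts (-0.40, 0.0977) and with only the 4 libraries of the comparison (-0.41, 0.303), over a range of adjusted p from 0.0026 to 0.303. On the TPM scale the control and RBI2 at 120 min did not overlap either, at 22.5 and 21.1 TPM in the control and 17.1 and 19.3 TPM after treatment. Of the reads of TAF1A over all libraries, 83.1% were assigned to the coding TAF1A-202 and 10.6% to the coding TAF1A-203. The shares were 82.9% and 9.32% in the control and 72.3% and 21.5% with RBI2 at 120 min. In that comparison the log2 fold change was -0.61 for TAF1A-202 and 0.81 for TAF1A-203. Neither passed edgeR's transcript test (adjusted p of 0.274 and 0.610).

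TAF1B stood at 53.3 and 63.8 CPM in the control. With RBI2 it stood at 61.1 and 56.8, 46.2 and 50.7, and 49.6 and 47.6 CPM in order of the labels, and with CX-5461 at 57.0 and 59.7, 53.7 and 44.9, and 62.2 and 65.1 CPM. It was thus lowest with RBI2 at 30 and 120 min and with CX-5461 at 30 min, where its log2 fold changes against the control were -0.27, -0.27 and -0.25 with adjusted p values of 0.163, 0.113 and 0.218, and none passed. In the other 3 treated groups their size did not exceed 0.12. In TPM the control had the lowest mean, 44.3 ± 8.02 TPM, against 45.2 to 61.8 TPM. Rescaled without mitochondrial genes it stood at 56.3 ± 1.96 TPM, and RBI2 and CX-5461 at 30 min were lowest, at 52.5 ± 4.09 and 52.2 ± 9.38 TPM. The coding TAF1B-201 held 96.1% of its reads over all libraries. TAF1B followed RRN3 across the 14 libraries, with a Pearson correlation of log2 CPM of 0.89, the highest among the 28 pairs of members. These libraries share groups and differ in depth, and the value is given as a description.

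TAF1C was the member with the widest spread between replicates and stood at 30.0 and 22.5 CPM in the control. The treated groups lay between 29.1 and 36.1 CPM, and all 6 log2 fold changes were positive, from 0.25 to 0.38, with no adjusted p under 0.127. Control replicate 2 was the lowest of all libraries. Its reads were also divided differently, since coding transcripts held 69.1% of the gene's reads in control replicate 1 and 20.3% in control replicate 2. Over all libraries the coding TAF1C-218 held 45.9% of them and the retained-intron TAF1C-209 and TAF1C-212 held 22.1% and 20.4%.

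TBP, like TAF1A, was highest in the control in CPM, at 20.6 and 24.8 CPM, with all treated libraries between 17.1 and 20.4 CPM. Its libraries overlapped with the control in none of the 6 comparisons, as was so for 33.1% to 54.9% of all genes. All 6 share the same 2 control libraries. The lowest values, 17.1 and 17.4 CPM, were those of CX-5461 at the 10 min label, with a log2 fold change of -0.39 (SE 0.101, 95% interval -0.62 to -0.17) and an adjusted p of 0.0544 in edgeR's test, which did not pass. In TPM the order was another, since the control mean of 19.9 ± 5.48 TPM lay below that of 5 of the 6 treated groups, which reached 26.9 ± 1.57 TPM with RBI2 at 30 min. Rescaled without mitochondrial genes the control, at 25.2 ± 3.29 TPM, lay below 4 of the 6. Over all libraries the coding TBP-202, TBP-201 and TBP-205 held 49.7%, 26.9% and 20.2% of the reads, and their order differed between groups. TBP-201 lay above TBP-202 in the control, at 44.6% against 39.0%, and with CX-5461 at 30 and 120 min. In the other groups TBP-201 lay below TBP-202, at 9.25% against 69.7% with RBI2 at 120 min. These are mean shares of 2 libraries, and no TBP transcript passed edgeR's transcript test in any comparison. TBP-201 and TBP-202 are 1861 and 1857 bases long. With CX-5461 at the 10 min label against the control, their log2 fold changes had SEs of 3.06 and 1.66. Salmon's uncertainty in dividing reads between them was not tested. TBPL1, a relative of TBP that does not belong to SL1, lay between 49.6 and 81.6 TPM and was above TBP in every library by this range, since TBP did not exceed 28.0 TPM.

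RRN3, the Pol I recruitment factor, was lower with RBI2 at the 120 min label and was the only member besides TAF1A that changed with RBI2 against the control. The control libraries held 44.7 and 52.6 CPM and the treated ones 36.6 and 33.3 CPM, without overlap. The log2 fold change was -0.47 (SE 0.128, 95% interval -0.76 to -0.19) with an adjusted p of 0.0322 by edgeR's quasi-likelihood test. At the labels 10 and 30 min RRN3 stood at 49.5 and 48.6, then 39.8 and 44.2 CPM with RBI2. With CX-5461 it stood at 45.4 and 44.5, 47.6 and 37.5, and 52.0 and 59.0 CPM, and its log2 fold changes against the control were -0.11, -0.19 and 0.19.

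The fall of RRN3 rested on the scale used. Per length, the treated libraries at 18.0 and 16.7 TPM lay between the control libraries at 21.6 and 14.2 TPM, with means of 20.9 ± 0.73 and 22.6 ± 3.42 TPM once mitochondrial genes were left out. An offset for Salmon's effective length, averaged over the gene's transcripts in each library, gave a log2 fold change of -0.24 with an adjusted p of 0.33. Without control replicate 2 the values were -0.36 and 0.114, without RBI2 replicate 1 at this label -0.52 and 0.107, and without its replicate 2 -0.42 and 0.147. With only the 4 libraries of the comparison they were -0.47 and 0.301. Leaving out RBI2 replicate 2 at the 10 or 30 min label gave adjusted p values of 0.0517 and 0.0504. The adjusted p ranged from 0.00551 to 0.33 over the alternatives, of which 14 of 21 kept the call. Nearly all reads of RRN3 over all libraries, 99.6%, were assigned to RRN3-201, with 99.9% in the control and 99.7% with RBI2 at 120 min. For RRN3 the offset thus followed the effective length estimated in each library, while the annotated length hardly differed. The pseudogene copies RRN3P1, RRN3P2 and RRN3P3 held at most 0, 4 and 78 reads in a library, and the division of reads between near-identical copies is uncertain. Its part in the fall of RRN3 was not tested. PDXDC1, which overlaps RRN3 on the other strand, had a log2 fold change of -0.06 with an adjusted p of 0.677.

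UBTF differed among the CX-5461 labels and did not pass in any comparison with the control. It was highest with CX-5461 at the 10 min label, at 139.2 and 133.9 CPM, and lowest at 30 min, at 103.2 and 104.1 CPM, with 109.0 and 110.6 CPM at 120 min. These 3 pairs of libraries did not overlap, and the edgeR test of any difference among the 3 CX-5461 labels gave an adjusted p of 0.016. The call was lost without CX-5461 replicate 1 or 2 at the 10 min label (adjusted p of 0.222 and 0.109), without replicate 2 at 30 min (0.0527) and with an offset for transcript length (0.715), over a range from 3.75e-07 to 0.715. The control held 110.7 and 119.4 CPM, and the log2 fold change at the 10 min label was 0.25 (SE 0.0655, 95% interval 0.10 to 0.39) with an adjusted p of 0.0601. Both DESeq2 and edgeR with DESeq2's size factors called it. In TPM its mean at that label, 41.2 ± 4.09, lay below that of the control, 42.8 ± 9.48, and the same held for TPM without mitochondrial genes, at 48.1 ± 5.22 against 56.2 ± 20.3. With RBI2 the gene stood at 127.4 and 126.7, 117.7 and 111.8, and 125.7 and 129.3 CPM. Its reads were divided among several coding transcripts. Over all libraries UBTF-204 held 32.4%, UBTF-202 17.3%, UBTF-213 17.0%, UBTF-209 13.1% and UBTF-203 12.5%. The order differed between groups. In the control UBTF-203 held 32.4%, UBTF-209 17.3% and UBTF-204 14.2%. With CX-5461 at the 10 min label UBTF-204 held 44.2%, UBTF-203 13.7% and UBTF-209 0%. None of these 3 passed edgeR's transcript test in that comparison. The log2 fold changes were 1.96 for UBTF-204 (SE 0.90, adjusted p 0.627) and -0.91 for UBTF-203 (SE 2.24, 0.987). For UBTF-209 it was -11.4 (SE 4.16, 0.575). Salmon's uncertainty in dividing reads between them was not part of the test.

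TTF1, the termination factor, varied least. Its libraries ranged from 41.2 to 53.3 CPM, 1.29 times the lowest, with 50.5 and 47.0 CPM in the control. No comparison with the control gave an absolute log2 fold change above 0.16. TTF1 passed no test, and its lowest group was CX-5461 at the 120 min label, at 46.3 and 41.2 CPM. The coding TTF1-201 held 98.0% of its reads over all libraries and 90.2% in the control.

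Across the 7 groups, the edgeR test of any difference called TAF1D (adjusted p of 0.000102) and UBTF (0.0236), 2 of 8 members where 11% of all genes passed. The call of UBTF was lost under 9 of 20 alternatives, 8 of them single libraries left out (adjusted p of 0.0525 to 0.0901), and that of TAF1D under none. These libraries were replicate 2 of RBI2 at 10 and at 30 min, both replicates of RBI2 at 120 min, both of CX-5461 at 10 min, its replicate 2 at 30 min and its replicate 1 at 120 min. Among the 3 CX-5461 labels it called the same pair, with an adjusted p of 5.35e-05 for TAF1D, where 2.87% of all genes passed. Among the 3 RBI2 labels edgeR called none of the members, 3 had an unadjusted p under 0.05 as had 18.8% of all genes, and 1.67% of all genes passed edgeR's adjusted test. DESeq2 called 1 member there (RRN3) and 7.10% of all genes. In the 4 other comparisons with the control edgeR's quasi-likelihood test called 0 members. With RBI2 at the 10 min label 1 member had an unadjusted p under 0.05, as had 12.9% of all genes, and 0.201% of all genes passed edgeR's adjusted test, while DESeq2 called 0 members and 1.147% of all genes. With RBI2 at 30 min 2 members had such an unadjusted p (25.8% of all genes) and 0.0713% of all genes passed in edgeR, while DESeq2 called 0 members and 5.89% of all genes. With CX-5461 at 30 min 4 members had such a p (22.9% of all genes) and 0% of all genes passed in edgeR, while DESeq2 called 0 members and 0.182% of all genes. With CX-5461 at 120 min 3 members had such a p (12.4% of all genes) and 0.0778% of all genes passed in edgeR, while DESeq2 called 1 member (TAF1D) and 0.473% of all genes. All 6 comparisons share the 2 control libraries. Control replicate 1 decided several counts: without it edgeR called 3 members with RBI2 at 10 min, 4 at 30 min and 5 at 120 min, and 5, 5 and 3 with CX-5461 at the same labels, and 7 in the test of the 7 groups. The share of all genes called rose as well without that library, to 29.1%, 38.3% and 43.1% with RBI2, 37.7%, 39.3% and 21.5% with CX-5461 and 52.4% among the 7 groups. That leaves control replicate 2, the library with the high mitochondrial share, as the lone control, assumed to vary like the other groups. The part of that share in these counts was not tested.

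**Figure D4:**
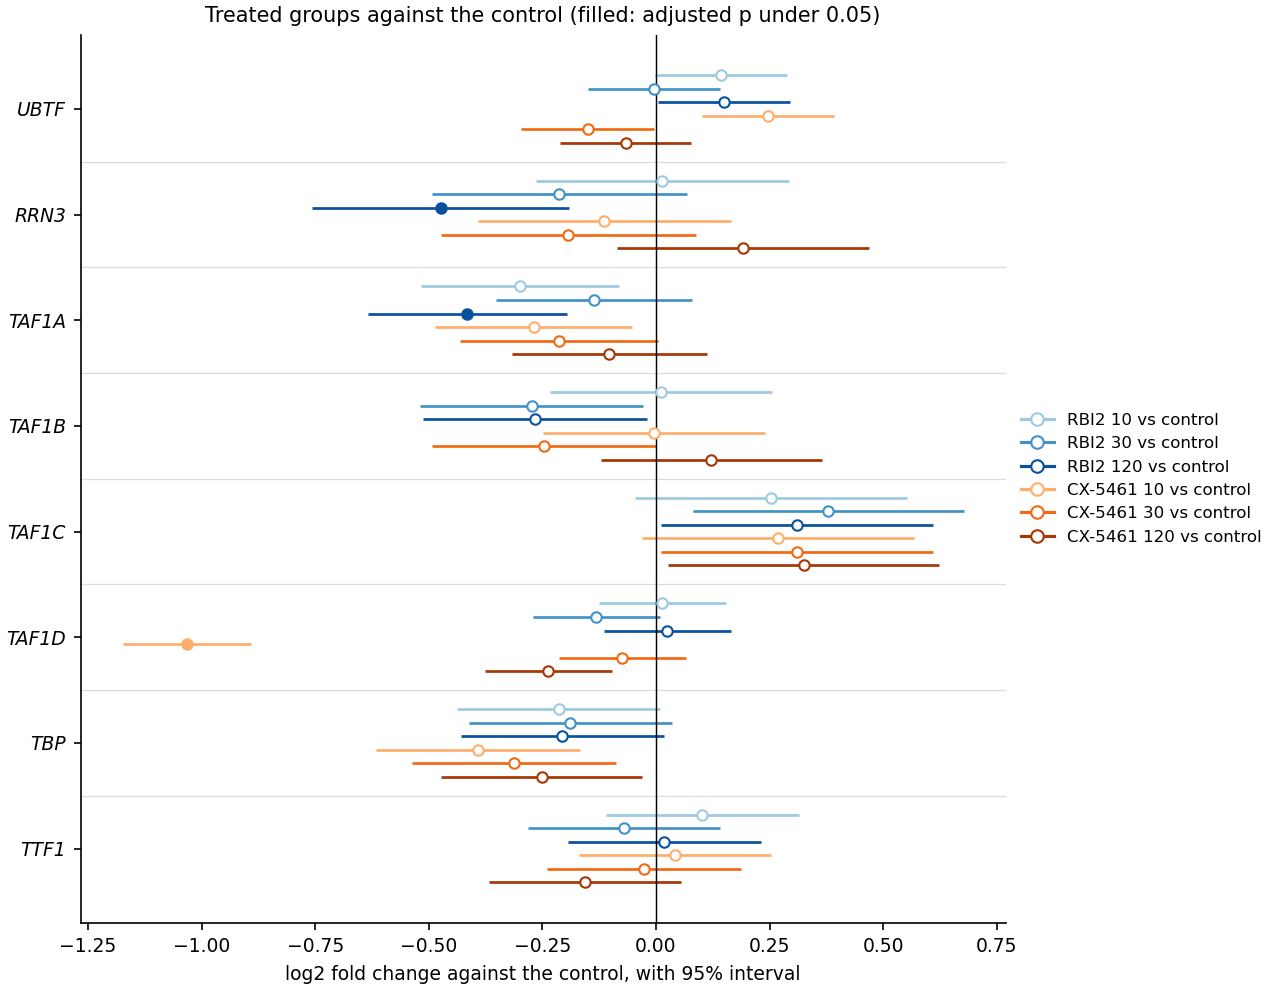
Log2 fold change of each member in the 6 treated groups against the control, with 95% intervals and filled points where the adjusted p was under 0.05 in edgeR's test (numbers are the time labels in min). TAF1D with CX-5461 at 10 min, at -1.03, stands apart, and RRN3 at -0.47 and TAF1A at -0.41 with RBI2 at 120 min are the other filled points.

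Of the 8 members, 6, 1 and 4 had a positive log2 fold change with RBI2 in order of the labels, and 3, 1 and 3 with CX-5461. At the 30 min label 7 of 8 were thus negative with either compound, against the same control libraries. The median log2 fold change of the 8 was 0.01, -0.13 and -0.09 with RBI2 in order of the labels and -0.06, -0.17 and -0.08 with CX-5461, against 0.01, -0.01, 0.01, -0.04, -0.05 and 0.06 over all genes tested. Members whose libraries did not overlap with those of the control numbered 5, 6 and 5 with RBI2, where 34.4%, 51.3% and 54.9% of all genes did so, and 5, 4 and 5 with CX-5461, against 47%, 39.8% and 33.1%.

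Set directly against each other at the same dose and label, the compounds differed for TAF1D at the 10 min label. RBI2 libraries held 251.1 and 247.6 CPM and CX-5461 libraries 122.8 and 118.7 CPM, a log2 difference of 1.05 (SE 0.064, 95% interval 0.90 to 1.19), or 2.07 times as much, with an adjusted p of 1.37e-05 in edgeR's test. TAF1D was 1 of 8 members called where 3.06% of all genes were, and all 21 alternatives kept the call. TAF1D-215 and TAF1D-213 were again the transcripts that passed, with log2 differences of 2.05 (adjusted p 0.0107) and 3.79 (0.0235), where 0.245% of all transcripts did. The libraries of 6 members did not overlap at this label, against 57.3% of all genes. At the 30 min label edgeR called 0 members, 1 (UBTF) had an unadjusted p under 0.05 as had 7.79% of all genes, and 0.013% of all genes passed. DESeq2 called 0 members and 0.292% of all genes. The libraries of 5 members did not overlap there, against 41.1% of all genes. The widest 95% intervals of the difference there were those of TAF1C, -0.23 to 0.36, and RRN3, -0.30 to 0.26.

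At the 120 min label 4 of 8 members differed between the compounds, in a comparison in which 16.1% of all genes did. RRN3 was lower with RBI2, at 36.6 and 33.3 CPM against 52.0 and 59.0 CPM with CX-5461, by a log2 difference of -0.66 (SE 0.127, adjusted p 0.0118). TAF1B was lower with RBI2 too, at 49.6 and 47.6 CPM against 62.2 and 65.1 CPM, by -0.39 (SE 0.11, adjusted p 0.0386). TAF1D was higher with RBI2, at 249.6 and 252.7 CPM against 211.3 and 207.6 CPM, by 0.26 (SE 0.0631, adjusted p 0.0225). UBTF was higher with RBI2 as well, at 125.7 and 129.3 CPM against 109.0 and 110.6 CPM, by 0.22 (SE 0.0654, adjusted p 0.0479). None of these 4 members overlapped between the groups, nor did TAF1A and TTF1, and 63.7% of all genes did not. TAF1A missed the threshold, with a log2 difference of -0.31 (95% interval -0.53 to -0.10) and an adjusted p of 0.0537. For TAF1C, TBP and TTF1 the 95% intervals were -0.31 to 0.28, -0.18 to 0.27 and -0.04 to 0.39.

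Of these 4 differences RRN3 was called under 18 of 21 alternatives, TAF1D under 15, UBTF under 10 and TAF1B under 8. Leaving out RBI2 replicate 1 or 2 at this label gave RRN3 an adjusted p of 0.0618 and 0.0873, and leaving out CX-5461 replicate 2 gave 0.082. TAF1D lost its call without any 1 of the 4 libraries (adjusted p of 0.0767 to 0.125), UBTF did so too (0.106 to 0.228), and TAF1B likewise (0.0886 to 0.188). UBTF also lost it without replicate 2 of RBI2 at 10 or 30 min or of CX-5461 at 30 min (0.0696 to 0.0899), and TAF1B without any 1 library of RBI2 at 10 or 30 min or of CX-5461 at 10 min (0.0563 to 0.069). UBTF and TAF1B also lost their calls with the replicate number as a block (0.0662 and 0.0524), UBTF with only the 4 libraries (0.0668), UBTF and TAF1D with no filter on low counts (0.244 and 0.0936), and TAF1B without retained-intron transcripts (0.0541). An offset for effective length left RRN3 as the only member called. When the 12 treated libraries were compared with the label as an additive term, edgeR called 0 of 8 members, 2 had an unadjusted p under 0.05 as had 27.2% of all genes, and 8.76% of all genes passed. DESeq2 called 1 member there (TAF1D) and 12.3% of all genes.

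**Figure D5:**
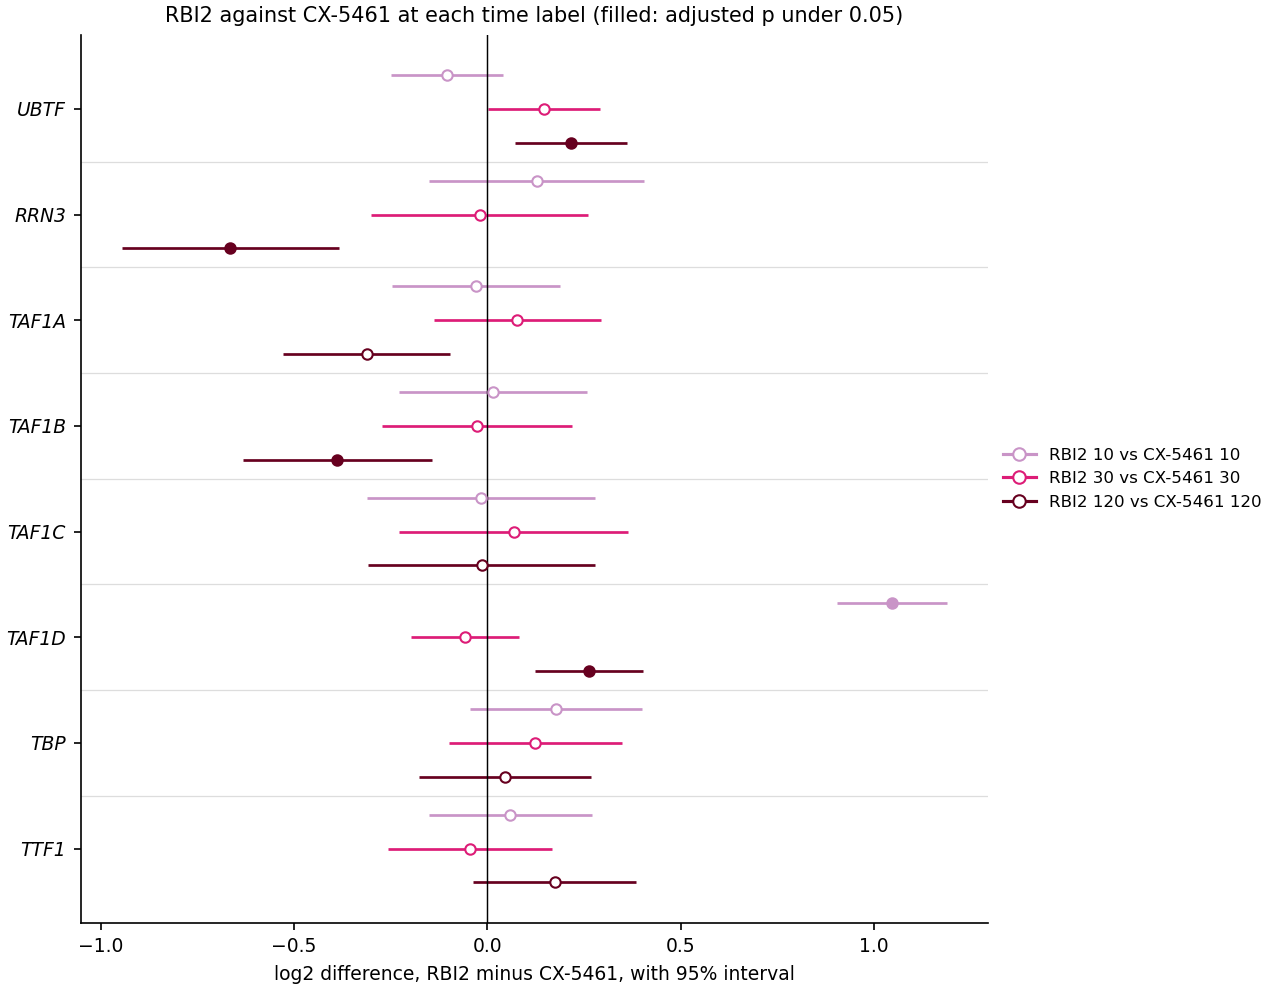
Log2 difference of each member between RBI2 and CX-5461 at each label in min, with 95% intervals, positive where RBI2 is higher, and filled points where the adjusted p was under 0.05 in edgeR's test. TAF1D lies at 1.05 at the 10 min label, and at 120 min RRN3 and TAF1B are lower and TAF1D and UBTF higher with RBI2.

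The rest of the Pol I machinery was also measured. Of 13 genes for Pol I subunits, edgeR called 3 with RBI2 at the 120 min label against the control, all higher. They were the catalytic subunit POLR1A (log2 fold change 0.62, adjusted p 0.0163), POLR1G (0.44, 0.00924) and POLR1E (0.26, 0.026), in a comparison that called 18% of all genes. Of 14 tested genes for other factors of rDNA transcription, 6 were called in that comparison. TCOF1, encoding the nucleolar protein treacle, was higher by 0.56 (adjusted p 0.00521), BAZ2A of the nucleolar remodelling complex by 0.61 (0.0199), MYBBP1A by 0.49 (0.00636) and the transcript release factor CAVIN1 by 0.34 (0.0256). SMARCA5, the ATPase that works with BAZ2A, fell by 0.65 (0.0355) and the nucleolar chaperone NPM1 fell by 0.31 (0.0243). The 2 libraries of RBI2 at 120 min decided these counts. Without replicate 1, 0 and 1 genes of the lists were called (0.448% of all genes), without replicate 2, 0 and 2 (0.988%), and TCOF1 was called both times. With a length offset (1.40% of all genes) or only the 4 libraries (0%), 0 genes of both lists were called, without control replicate 1 the counts were 7 and 12 (43.1%), and without control replicate 2 they were 2 and 4 (8.27%). No gene of either list passed in the other 5 comparisons with the control. Between the compounds at the 120 min label, POLR1G (0.43), TCOF1 (0.55), BAZ2A (0.49) and MYBBP1A (0.38) were higher with RBI2, POLR1B (-0.43) and SMARCA5 (-0.62) were lower, where 16.1% of all genes passed, and no gene of either list passed at the other labels. Of these 2 subunits and 4 other factors, 0 were called without RBI2 replicate 1 at that label (0.187% of all genes) or replicate 2 (0.0371%), and 1 without CX-5461 replicate 2 (0.414%). Over the whole lists of 13 subunits and 14 other factors, 2 to 4 and 2 to 8 were called with any other library left out (8.37% to 27.9% of all genes). With a length offset 2 and 0 were called (6.55%).

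The genes most like the 2 members that differed among the 7 groups were found over the 14 libraries and all 15426 genes. Log2 CPM of TAF1D correlated most with that of EIF4A2, a translation initiation factor whose introns also hold snoRNAs (Pearson r of 0.98), and of CCN1, a secreted matricellular protein (0.977). EIF4A2 stood at a mean of 443 CPM in the control and 247 CPM with CX-5461 at the 10 min label, and CCN1 at 679 and 92.3 CPM. For UBTF the most alike were SH3BP5-AS1, an antisense RNA at 2.88 CPM in the control, with an r of 0.91, and IFFO2 with 0.878. These genes were chosen for the likeness, which is a description of libraries that share groups.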

How the data were processed

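Poly(A) RNA of 14 libraries was sequenced, 2 in each of 7 groups taken from the sample labels. The authors removed reads that aligned to the rDNA repeat with STAR 2.7.6a and assigned the rest to GRCh38 transcripts with Salmon 1.3.0. The submitters' processing notes also list SAMtools 1.11, bedtools 2.29.2 and DESeq2 1.28.1. The estimated counts deposited by the authors are neither normalized nor rounded, and the TPM values deposited by the authors are Salmon's. Transcript lengths and effective lengths stand beside them. Salmon estimated the effective length in each library, and it exceeded the annotated length for 18.2% of transcripts on average. TPM rests on these effective lengths, and so does every offset named here for length or transcript length. Poly(A) selection and the assignment of reads to annotated transcripts both bear on TAF1D, whose reads fall on many overlapping transcripts.

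Transcripts were matched to GENCODE 44 without the version (225662 of 228754; the rest held 1.03% to 1.13% of reads), and counts were summed per gene and rounded. Genes were kept with filterByExpr (minimum count 10) and scaled with TMM. edgeR 4.0.16 (limma 3.58.1, R 4.3.3) fitted all 14 libraries in 1 model (common coefficient of variation 12.3%), and its quasi-likelihood F test gave p-values adjusted by the Benjamini-Hochberg method over all genes of a comparison. The study used DESeq2 with a fold limit, and both were alternatives here (DESeq2 1.42.0). Transcripts were tested the same way. Levels between genes were compared in TPM, with no test, and CPM used a prior count of 2 on the log2 scale. On simulated data for CX-5461 at 10 min against the control, over 15148 genes, 59 of 100 genes changed by a log2 of 1 and 21 of 100 changed by 0.585 were recovered, with 1 false call.

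The text names all 8 members, their transcripts with at least 10% of a member's reads or past the transcript test, the 2 genes most like each member past the test of 7 groups, and the called genes of the 2 Pol I lists. TAF1D-202 and TAF1D-210, the overlapping genes and the copies were named besides. The members and lists were chosen with earlier results of these data known. Alternatives were DESeq2's size factors, DESeq2, no filter, a length offset, the fold limit, an unadjusted p, the replicate number as a block, only the 4 libraries compared, each library left out, and sums without retained introns, the last chosen after seeing the data. Promoter sequences came from RefSeq (GRCh38.p14). The levels of nuclear-encoded rRNA were not analysed here.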

Additional observations from a re-analysis of the deposited data

Results flagged for a closer look

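Between RBI2 and CX-5461 at one label, 5 differences passed the quasi-likelihood test of edgeR (Benjamini-Hochberg adjusted p), which is a test of the difference itself. At the 10 min label TAF1D differed by 1.05 on the log2 scale, higher with RBI2 in both libraries, as 1 of 8 members where 3.06% of all genes passed. At the 120 min label UBTF differed by 0.22 and TAF1D by 0.26, both higher with RBI2, and RRN3 by -0.66 and TAF1B by -0.39, both lower, as 4 of 8 members where 16.1% of all genes passed. Among the 3 CX-5461 labels, the test of any difference gave adjusted p values of 5.35e-05 for TAF1D, whose libraries at the 10 min label lay below the others, and 0.016 for UBTF, whose libraries at that label lay above them. Within a group of 2 libraries, a search cannot tell which of the 2 is the outlying one. Across all libraries, control replicate 2 stood apart in its mitochondrial share, at 20.4% against 8.05% to 11.2%.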

How the results depend on the processing

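The direction of each called member was kept under all alternatives run. TAF1D with CX-5461 at the 10 min label ranged from -1.09 to -0.92 on the log2 scale, and against RBI2 at that label from 0.82 to 1.07. Counts of members called, which were 0, 0 and 2 with RBI2 against the control, 1, 0 and 0 with CX-5461, and 1, 0 and 4 between the compounds, moved as follows, with the share of all genes called under the same setting in brackets. An unadjusted p gave 1 (12.9%), 2 (25.8%) and 5 (35.9%) with RBI2, 4 (22.5%), 4 (22.9%) and 3 (12.4%) with CX-5461, 1 between the compounds at 30 min (7.79%), 2 over all times (27.2%), 5 among the 7 groups (34.2%), 3 among the RBI2 labels (18.8%) and 4 among the CX-5461 labels (21.7%). It gave 5 transcripts among the 7 groups, here without a share of all transcripts, so that count is not compared. DESeq2 gave 2 (5.78%) and 1 (0.473%) with CX-5461 at the labels 10 and 120 min, 4 among the 7 groups (24.2%), 1 among the RBI2 labels (7.10%) and 1 over all times (12.3%). DESeq2's size factors in edgeR gave 2 with CX-5461 at 10 min (4.78%). Without the filter, 1 member passed with RBI2 at 120 min (11.02%), 2 between the compounds at 120 min (8.49%), 4 among the 7 groups (17.2%), 1 among the RBI2 labels (4.28%) and 1 over all times (7.40%). With the length offset the counts were 0 with RBI2 at 120 min (1.40%), 1 between the compounds there (6.55%), 1 among the 7 groups (3.12%) and 1 among the CX-5461 labels (1.297%). With only the 4 libraries compared, 0 passed with RBI2 at 120 min (0%) and 0 with CX-5461 at 10 min (0.0208%). With the study's fold limit, 0 members passed with RBI2 at 120 min (1.82%) and 0 between the compounds there (1.67%). The cause of these shifts was not tested.

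With each library left out in turn, the counts with RBI2 ranged from 0 to 3 (0.0431% to 29.1% of all genes), 0 to 4 (0% to 38.3%) and 0 to 5 (0.448% to 43.1%). With CX-5461 they ranged from 1 to 5 (1.27% to 37.7%), 0 to 5 (0% to 39.3%) and 0 to 3 (0.0124% to 21.5%). Between the compounds they ranged from 1 to 1 (0.94% to 6.21%), 0 to 0 (0% to 0.0923%) and 0 to 5 (0.0371% to 27.9%). Among the 7 groups the range was 1 to 7 (2.33% to 52.4%) and among the RBI2 labels 0 to 1 (0.0494% to 12.8%). Among the CX-5461 labels it was 1 to 3 (0.507% to 14.5%) and over all times 0 to 0 (3.27% to 9.82%). For member transcripts in the test of the 7 groups the range was 0 to 3. No share of all transcripts stands beside that range, so it is not compared. Same-numbered replicates had deviations correlated above 0.1 in 3 of 21 pairs of groups (correlations from -0.179 to 0.18). These weak correlations show no pairing of the samples by number and cannot exclude one. The replicate block left 2 members, RRN3 and TAF1D, between the compounds at 120 min (14.5% of all genes) and changed no other count of members by more than 1.5 times. As TPM without mitochondrial genes, TAF1D in the control was 429 TPM and UBTF 56.2 TPM. The order of the members was kept, but this rescaling uses 1 factor per library and cannot change the order within a library. Per kb of the longest transcript, RRN3 and TAF1A changed places. The number of libraries, 2 a group, limits the precision, and the part of depth in it was not tested.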
